A study of Mus musculus with 8 samples.

Results

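Transforming growth factor beta (TGF-beta) signalling was examined through 10 genes that cover the route from ligand to nucleus: the ligand genes Tgfb1, Tgfb2 and Tgfb3, the receptor genes Tgfbr1, Tgfbr2 and Tgfbr3, the signal transducer genes Smad2, Smad3 and Smad4, and the target gene Tgfbi. They were taken by symbol, and all 10 had a row among the 23238 symbols of the tables. The study pulled ribosome-bound RNA out of mouse lung by an endothelial tag and sequenced it in 8 libraries from C57BL/6J mice. The 4 control libraries came from Cdh5-CreERT2; RPL22tm1.1Psam mice in room air, and the 4 others from Cdh5-CreERT2;Sox17fl/fl;RPL22tm1.1Psam mice in hypoxia of unstated oxygen level. Mice of both genotypes received tamoxifen, 2 mg on each of 5 days from an age of 8 weeks, and entered 3 weeks of room air or hypoxia at 10 weeks. Cdh5-CreERT2 is a tamoxifen-inducible recombinase driven by the VE-cadherin gene, and RPL22tm1.1Psam is the RiboTag allele, in which recombination adds a haemagglutinin tag to a ribosomal protein. Every Sox17-deleted mouse was also hypoxic, so deletion and hypoxia cannot be told apart. The labels used here do not say how many animals stand behind a library.

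TGF-beta ligands are secreted in a latent complex, and once freed they bind the type II receptor TGFBR2, which recruits and phosphorylates the type I receptor TGFBR1. Betaglycan, the product of Tgfbr3, is a co-receptor with a short cytoplasmic tail that presents ligand, TGF-beta2 above all, to TGFBR2. The active type I receptor phosphorylates SMAD2 and SMAD3, which join SMAD4 and enter the nucleus to control transcription. In endothelium the pathway bears on vessel stability, on growth and on the loss of endothelial traits known as endothelial-to-mesenchymal transition, and it is studied in pulmonary hypertension, where its balance with bone morphogenetic protein (BMP) signalling is a recurring theme.

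Library totals ran from 7000313 to 12913304 counts, and levels are given as CPM, the share of a library's counts scaled to a total of 1000000. The smallest level set apart from 0, taken as 3 counts, corresponds to 0.232 to 0.429 CPM, which covers counting error only. Sox17 had 3072, 2591, 2442 and 2442 counts in control libraries 1 to 4 and 473, 31, 6 and 41 in Sox17-deleted hypoxic libraries 1 to 4; whether its tag lies in the deleted part is not stated. Between 9821 and 10429 genes had a count in the control libraries and between 8019 and 8708 in the Sox17-deleted hypoxic ones. The summed level of 12 endothelial markers lay between 12005 and 13553 CPM in the controls and between 8191 and 13270 CPM in the others. Of these markers, 4 had a higher mean after deletion and hypoxia and 8 a lower one. Ramp2 was the most abundant, and no marker was at 0 or 1 count throughout. Sums of alveolar type 2 markers (912 to 1240 CPM, then 1958 to 4040 CPM) and club and ciliated cell markers (1275 to 2331 CPM, then 2518 to 5602 CPM) did not overlap between the groups. Their most abundant genes were Sftpc and Scgb1a1. Fibroblast markers summed to 475 to 732 CPM in controls and 774 to 9036 CPM in the other group. Gsn was the most abundant, and Lum was at 0 or 1 count in every library. Of the 10 fibroblast markers, 6 had a higher mean after deletion and hypoxia and 4 a lower one. In such bulk RNA, fewer cells of a type and less RNA per cell cannot be told apart.

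Of these 10 genes, only the co-receptor gene had groups that did not overlap. Lower values without overlap were found in 4.96% of all genes tested, so 1 such gene among the 8 tested members does not stand out. Tgfbr3 was lower in all 4 Sox17-deleted hypoxic libraries than in any control library (117 ± 37.2 and 26.7 ± 26.2 CPM; SD, n = 4), while the levels of Tgfbr2 overlapped, with a wide spread after deletion and hypoxia. Values of the 3 SMADs were at 0 or 1 count in 1 of 12 cases in the controls and in 7 of 12 in the Sox17-deleted hypoxic libraries. Over the 6010 tested genes with a mean in the range of the tested members, 7.66% and 25.0% of values were so low. This range, 8.19 to 113 CPM, is wide. Smad2 and Smad3, with means of 15.0 and 9.82 CPM over all libraries, lie near its lower end, so these shares are not matched to them in level. Tgfb2 had a higher mean and Tgfb3 a lower one, each with overlap between the groups, and Tgfb1 was nearly without counts in every library. None of the 10 genes passed the edgeR quasi-likelihood test after Benjamini-Hochberg adjustment over all genes tested, where 0 of 8282 genes (0%) passed and 424 had an unadjusted p under 0.05, none of them a member. DESeq2 called 469 of 9873 genes (4.75%) and none of the 8 members to which it gave an adjusted p, and limma-voom called 44 of 8282 (0.531%) and no member. The 8 members that passed the low-count filter had 5 lower and 3 higher log2 fold changes, with a median of -1.39 beside -0.01 over all genes tested. Passing the count filter can itself depend on the group in which a gene is high, so these figures describe the tested genes only.

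**Figure D1:**
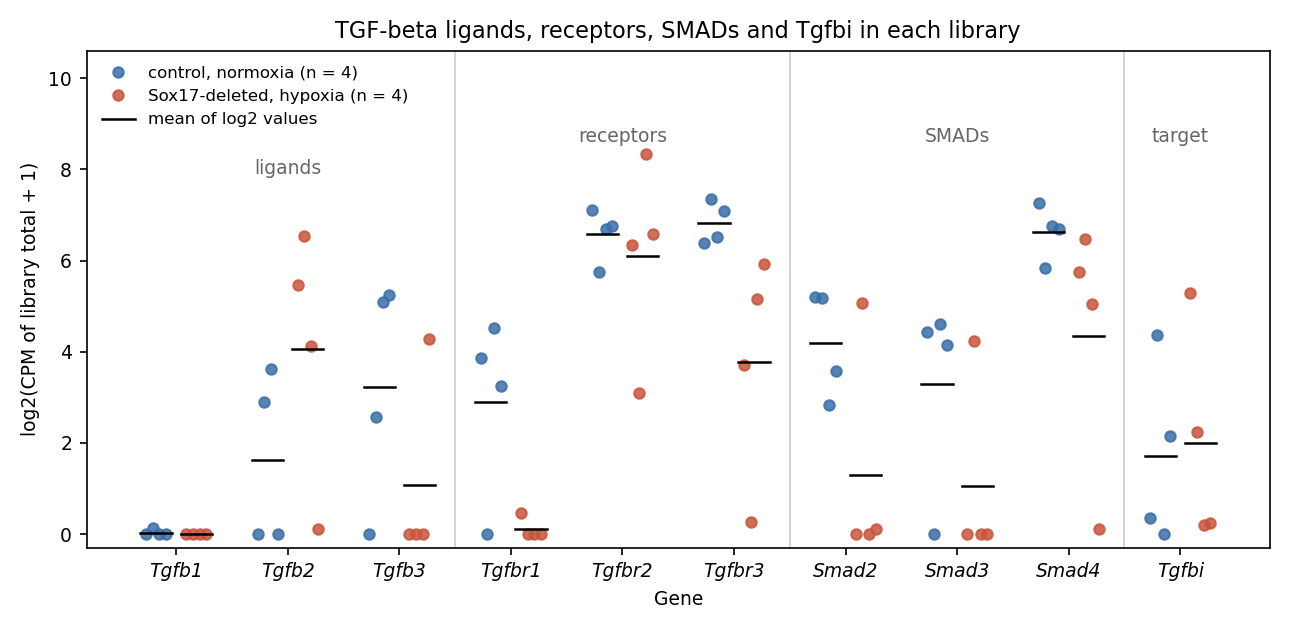
Level of each gene in each library, as log2(CPM of the library total + 1), with control libraries in blue, Sox17-deleted hypoxic libraries in red and black bars for the mean of the log2 values (n = 4 each). Only for Tgfbr3 do all red points lie below all blue ones; many points of the ligand and SMAD genes sit at or near 0.

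Among the ligands, Tgfb1 (chromosome 7, 25687002 to 25705077, plus strand, GRCm38, the assembly also called mm10) encodes the isoform usually taken as the main one in adult tissue. It had 1 count in control library 2 and 0 in the other 7 libraries, of 85680283 counts in all. A row at 0 does not show that a transcript is absent here: Tbp, the gene of the TATA-binding protein that every cell uses, was listed at 0 in 6 of the 8 libraries, an example chosen after its values were seen. No annotated gene overlaps Tgfb1. Tgfb1 therefore could not be compared between the groups.

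Tgfb2 (chromosome 1, 186622792 to 186705989, minus strand) encodes the isoform that depends most on betaglycan for binding. It stood at 0, 6.41, 11.3 and 0 CPM in control libraries 1 to 4 and at 43.1, 91.5, 16.4 and 0.0896 CPM in Sox17-deleted hypoxic libraries 1 to 4. Thus 3 of the 4 Sox17-deleted hypoxic libraries were above every control library, and the fourth had a single count. Group means were 4.42 ± 5.47 and 37.8 ± 39.9 CPM (SD, n = 4). The log2 fold change of 3.10 (SE 2.44) had an edgeR adjusted p of 1.00 and an exact permutation p of 0.143, where the smallest p that 4 against 4 libraries allow is 0.0286. It was 2.27 without Sox17-deleted hypoxic library 2 and 4.09 without control library 3. Fibroblasts and smooth muscle can also transcribe this ligand. The library with the single Tgfb2 count, number 4, had the highest sum of fibroblast markers (9036 CPM) and of smooth muscle and pericyte markers (607 CPM), and the library with the most Tgfb2, number 2, had the next highest of both (2303 and 365 CPM). Of these markers, 4 of 10 (fibroblast) and 4 of 9 (smooth muscle and pericyte) had a lower mean after deletion and hypoxia. The sums are thus no direct measure of these cells. The part of these cells in the Tgfb2 level was not tested.

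Tgfb3 (chromosome 12, 86056745 to 86079041, minus strand) encodes the third isoform. Its levels were 0, 4.97, 33.0 and 37.0 CPM in the controls, and 18.3 CPM in Sox17-deleted hypoxic library 4 with 0 in the other 3 of that group. The groups overlapped, the log2 fold change was -2.05 (SE 2.72), and the edgeR adjusted p was 1.00. The 3′ end of Tgfb3, from which the tags come, lies inside Ttll5 on the opposite strand, and the labels used here do not say whether strand was used in counting. Counts of Ttll5 were 254, 133, 65 and 1 in the controls, then 454, 0, 0 and 0, and their part in the Tgfb3 level was not tested.

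Promoter sequence was searched for the letters bound by the factors at issue: ATTGTT, the core of SOX sites, CAGACA, a SMAD element, and GTCTAGAC, the SMAD palindrome, each on both strands of the 250 bases before a RefSeq start (GRCm38.p6). These motifs share no full match with each other. The table held 7 start sites of 6 members, namely Tgfb1, Tgfb2, Tgfbr1 (2 starts), Tgfbr2, Smad3 and Tgfbi. None of the 7 held ATTGTT, which 9.42% of all 32851 promoters hold, and none held GTCTAGAC, which 0.167% hold. CAGACA was found in 2, beside 17.1% of all promoters: that of Tgfb2 and the inner start of Tgfbr1. With 7 starts, 2 matches do not stand out from that share. The outer start of Tgfbr1 held none of the motifs, and Tgfb3, Tgfbr3, Smad2 and Smad4 had no start to search. Both matches are shown with the SMAD element in capitals. A match describes the letters and not binding.
Tgfb2, minus strand, chr1:186705990-186706239: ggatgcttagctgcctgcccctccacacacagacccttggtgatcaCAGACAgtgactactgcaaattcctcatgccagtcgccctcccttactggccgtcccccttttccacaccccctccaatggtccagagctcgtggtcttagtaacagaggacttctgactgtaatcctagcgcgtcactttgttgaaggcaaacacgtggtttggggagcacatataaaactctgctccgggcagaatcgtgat
Tgfbr1, plus strand, chr4:47385966-47386215: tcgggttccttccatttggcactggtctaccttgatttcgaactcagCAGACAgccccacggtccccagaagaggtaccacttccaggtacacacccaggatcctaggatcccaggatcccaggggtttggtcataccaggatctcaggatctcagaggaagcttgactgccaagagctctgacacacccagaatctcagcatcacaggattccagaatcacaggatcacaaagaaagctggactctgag

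Among the receptors, Tgfbr3, which encodes betaglycan (chromosome 5, 107106570 to 107289629, minus strand), was at 82.5, 162, 90.7 and 134 CPM in control libraries 1 to 4. In Sox17-deleted hypoxic libraries 1 to 4 it was at 12.1, 0.212, 34.9 and 59.5 CPM. The highest of the second group lay below the lowest of the first, and library 2 had only 2 counts of the gene. The log2 fold change was -2.10 (SE 1.14). Its unadjusted edgeR p of 0.0866 became an adjusted p of 1.00, so the difference did not pass; the exact permutation p was 0.0286, the smallest possible. Tgfbr3 was the 1 of 8 tested members whose groups did not overlap with lower values after deletion and hypoxia, where 4.96% of all tested genes did so, and no tested member did so with higher values, where 1.63% of all did. A count of 1 does not stand out from these shares. With a library left out, the log2 fold change of Tgfbr3 ran from -2.77 to -1.65. Groups that do not overlap with all 8 libraries cannot overlap with fewer, and the exact permutation p restates that separation.

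Tgfbr2, the type II receptor gene (chromosome 9, 116084293 to 116175360, minus strand), had the highest mean of the 10. Its levels were 137, 52.6, 103 and 107 CPM in the controls and 80.6, 7.52, 321 and 95.3 CPM in the Sox17-deleted hypoxic libraries. The second group thus held both the lowest and the highest library, and the groups overlapped. Means were 99.7 ± 35.0 and 126 ± 135 CPM (SD, n = 4), with a log2 fold change of 0.44 (SE 0.84, edgeR adjusted p = 1.00). Library 3 set the sign, since the log2 fold change was -0.72 without it. Library 3 also had the smallest total count, 7000313.

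Tgfbr1, the type I receptor gene (chromosome 4, 47353222 to 47414931, plus strand), was at 13.6, 0, 21.9 and 8.50 CPM in the controls. In the Sox17-deleted hypoxic libraries it had 5 counts (0.387 CPM) in library 1 and 0 counts in the others. It did not pass the filter on low counts and was not tested; run without that filter, edgeR gave an unadjusted p of 0.121 and an adjusted p of 0.550. Control library 2, at 0, overlapped the other group.

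The make-up of receptor tags within a library gives the same data without a scale between libraries. In a 3′ library a tag is meant to be read about once per transcript, so shares of tags were not divided by length. Repeated copies of a molecule could still inflate single values, so these are shares of tags and not of transcripts. Tgfbr3 made up 35.4%, 75.5%, 42.2% and 53.7% of the Tgfbr1, Tgfbr2 and Tgfbr3 counts in the controls. In the Sox17-deleted hypoxic libraries its share was 13.0%, 2.74%, 9.80% and 38.4%. The share in library 2 of that group rests on 2 counts of Tgfbr3 and 71 of Tgfbr2. Library 4 of the second group lay above control library 1, and the other 3 lay below every control. This share was chosen after the values were seen and was not tested.

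**Figure D2:**
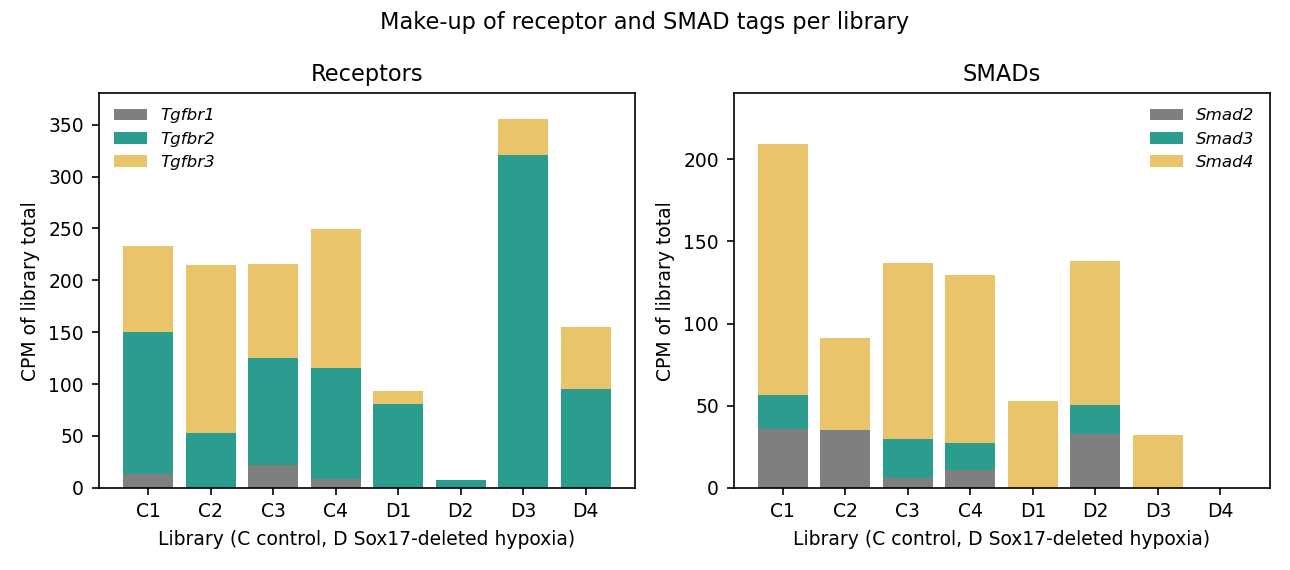
Stacked levels in CPM of the library total of the 3 receptor genes (left) and the 3 SMAD genes (right), for control libraries 1 to 4 (C) and Sox17-deleted hypoxic libraries 1 to 4 (D). The controls hold receptor sums of 214 to 249 CPM against 7.73 to 356 CPM in the other group, and library 4 of that group has almost no SMAD tags.

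Among the transducers, Smad4, the shared partner of all receptor-activated SMADs (chromosome 18, 73639009 to 73703780, minus strand), was the most abundant. It was at 153, 55.9, 107 and 102 CPM in the controls and at 53.1, 87.4, 32.3 and 0.0896 CPM in the Sox17-deleted hypoxic libraries. Only library 2 of the second group lay above the lowest control. Means were 104 ± 39.8 and 43.2 ± 36.7 CPM (SD, n = 4), with a log2 fold change of -1.27 (SE 1.16), an edgeR adjusted p of 1.00 and an exact permutation p of 0.0571.

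Smad2 (chromosome 18, 76241580 to 76310963, plus strand) and Smad3 (chromosome 9, 63646767 to 63757994, minus strand) encode the SMADs that the type I receptor phosphorylates. Smad2 was at 35.6, 35.1, 6.10 and 10.9 CPM in the controls, and at 0, 32.7, 0 and 0.0896 CPM in the Sox17-deleted hypoxic libraries. Smad3 was at 20.6, 0, 23.5 and 16.6 CPM in the controls, and at 0, 17.8, 0 and 0 CPM in the other group. For both genes a single Sox17-deleted hypoxic library, number 2, held nearly all counts and stood among the controls, while the other 3 had at most 1 count. Their log2 fold changes were -1.51 (SE 2.43) and -1.83 (SE 2.66), with edgeR adjusted p values of 1.00. Without library 2 the group had 0 or 1 count of each gene, and the edgeR adjusted p was 0.414 for both.

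The same library that kept the 3 SMADs had the least receptor. Library 2 held 138 CPM of summed SMADs, within the control range of 91.0 to 209 CPM, and 7.73 CPM of summed receptors. Library 3 was the reverse, with 32.3 CPM of SMADs and 356 CPM of receptors. Library 1 lay between these libraries, with 53.1 CPM of SMADs and 93.1 CPM of receptors. Library 4 had 0.179 CPM of SMADs beside 155 CPM of receptors. A relation between the SMAD and receptor sums was not tested. Summed SMAD levels were 142 ± 49.5 CPM in controls and 55.9 ± 58.9 CPM in the other group (SD, n = 4), and summed receptor levels 228 ± 16.6 and 153 ± 148 CPM.

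Zero or single counts were frequent for these genes. Of the 10 members, 2 or 3 were at 0 or 1 count in each control library, and 4, 3, 6 and 6 in Sox17-deleted hypoxic libraries 1 to 4. Over the 8 tested members this made 5 of 32 values in controls (15.6%) and 12 of 32 in the other group (37.5%). The 6010 tested genes with a mean in the same range, 8.19 to 113 CPM, were not matched to the members within it. Of their values, 7.66% in controls and 25.0% in the other group were at 0 or 1 count. Values at 0 or 1 were thus more frequent in the Sox17-deleted hypoxic libraries over genes of this range at large. The part of this loss of detection in the lower SMAD and Tgfbr1 levels was not tested.

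Tgfbi, a matrix protein gene named for its induction by TGF-beta (chromosome 13, 56609523 to 56639562, plus strand), did not separate the groups. It was at 0.284, 19.5, 0 and 3.45 CPM in the controls and at 38.3, 3.70, 0.143 and 0.179 CPM in the Sox17-deleted hypoxic libraries. A single library in each group held most of the counts. The log2 fold change of 0.85 (SE 2.36, edgeR adjusted p = 1.00) was -2.21 without Sox17-deleted hypoxic library 1. Macrophages and monocytes can also carry this transcript; 6 of their 10 markers had a higher mean after deletion and hypoxia, Adgre1 and Fcgr1 were at 0 or 1 count in every library, and the list summed to 159 to 242 CPM in controls and 232 to 352 CPM in the other group. Their part in the Tgfbi level was not tested.

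**Figure D3:**
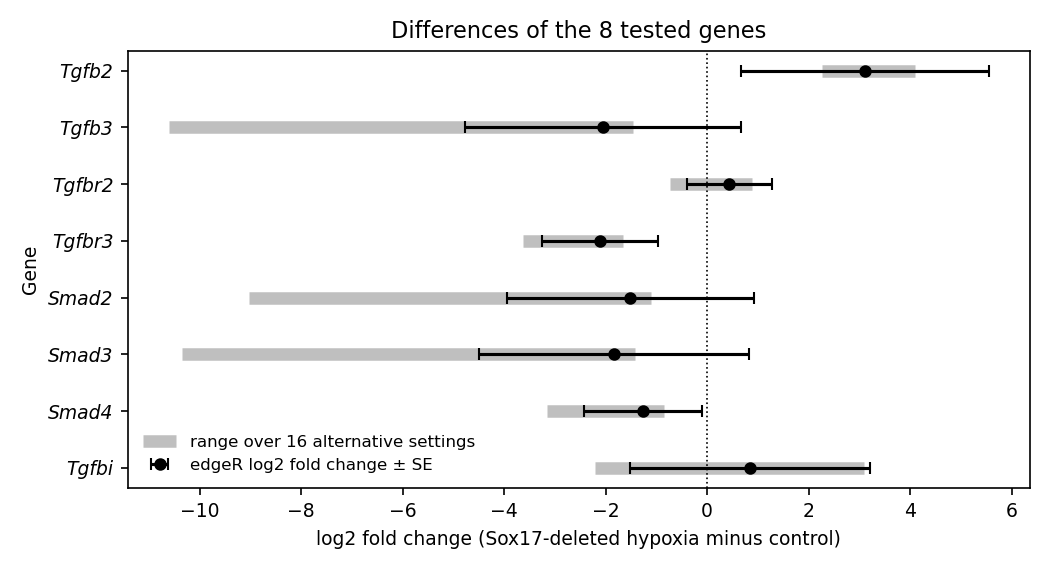
Log2 fold changes (Sox17-deleted hypoxia minus control) of the 8 tested genes from edgeR, with bars for the SE and grey bands for the span of the main and 16 alternative settings. The bands of Tgfbr2 and Tgfbi cross 0; that of Tgfbr3 runs from -3.64 to -1.65.

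Other genes of the pathway were taken from 6 lists of 82 genes, of which 58 were tested and none passed the edgeR test over all genes. In all, 24 were higher and 34 lower, with a median log2 fold change of -0.12 beside -0.01 over all tested genes. Unadjusted p values under 0.05 belonged to 3 of the 58, namely Eng, Pmepa1 and Rock1, beside 424 of 8282 genes. Of the 58, the groups did not overlap for 1 gene with lower values (Eng) and 1 with higher values (Rock1), beside 4.96% and 1.63% of all tested genes, so neither count stands out from the background.

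The list of accessory receptors (7 tested, 5 lower, median log2 fold change -0.78) included the second co-receptor of the family. It also held genes whose products are not receptors, among them Lrg1 and Ptpn14, and its median was the value of Ptpn14. Eng encodes endoglin, a co-receptor of endothelium that is built much like betaglycan and is mutated in hereditary haemorrhagic telangiectasia. It was at 545, 484, 346 and 433 CPM in the controls and at 299, 67.6, 244 and 146 CPM in the Sox17-deleted hypoxic libraries, so that every library of the second group lay below the first. Its log2 fold change of -1.21 (SE 0.46) had an unadjusted edgeR p of 0.0207 and an adjusted p of 0.684. As for Tgfbr3 and Tgfbr2, library 2 was the lowest of its group. Acvrl1, the type I receptor with which endoglin acts, was the most abundant of the list at 795 ± 74.0 and 676 ± 137 CPM (SD, n = 4), and its log2 fold change was -0.21 (SE 0.30). Lrg1, a secreted glycoprotein that binds endoglin, was at 614 ± 48.7 and 823 ± 592 CPM, but at a mean of 535 CPM without Sox17-deleted hypoxic library 1 (1687 CPM), which turned its log2 fold change from 0.45 to -0.12. Ptpn14, a phosphatase gene, was at 140 ± 99.1 and 77.0 ± 50.5 CPM.

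Genes of latent storage and activation (8 tested, 6 lower, median -0.36) gave no member past the test. Furin, the protease that cleaves the ligand precursors, was at 118 ± 32.4 and 48.0 ± 46.5 CPM (SD, n = 4; log2 fold change -1.30, SE 0.81). Ltbp4, which holds latent TGF-beta in the matrix of lung, was the most abundant at 191 ± 89.5 and 136 ± 72.1 CPM, and Ltbp1 had 7.73 ± 9.68 and 37.0 ± 60.9 CPM. The higher mean of Ltbp1 came from Sox17-deleted hypoxic library 1 at 127 CPM, and without it the other 3 averaged 6.90 CPM (log2 fold change -0.16 in place of 2.32). Without Sox17-deleted hypoxic library 2 the log2 fold change of Furin was -2.04. Itgav, the integrin subunit that takes part in freeing the ligand, did not pass the low-count filter and was not tested. It had 435, 6, 219 and 23 counts in the controls and none after deletion and hypoxia. The groups did not overlap for this gene, which was chosen after its values were seen. The shares of genes without overlap given above cover tested genes only, so this separation has no background to be read against. Of the 24 untested list genes, 13 had no count in any Sox17-deleted hypoxic library and 7 none in any control. Both numbers include 5 genes with no count in any library. Fewer genes at large had a count in the Sox17-deleted hypoxic libraries, and the share over all untested genes was not taken. These numbers therefore do not set the lists apart. Itgav was 1 of 4 list genes that DESeq2 called, with Ltbp2, Thbs1 and Tgif1. DESeq2 gave an adjusted p to 66 list genes (6.06% called, beside 4.75% of all genes). None of the 4 passed the low-count filter of edgeR, which asks for a minimum level in enough libraries. Each had at most 1 count summed over a whole group, the controls for Ltbp2 and the Sox17-deleted hypoxic libraries for the others.

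Regulators of SMAD signalling (11 tested, 7 lower, median -0.41) were mostly genes that limit it, but the list also held Usp15 and Sdcbp, which can promote it, at log2 fold changes of 1.32 and 0.21. Pmepa1, a negative-feedback target, was at 27.5, 67.5, 52.8 and 37.7 CPM in the controls and at 30.3, 151, 148 and 297 CPM in the Sox17-deleted hypoxic libraries. Libraries 2 to 4 lay above every control and library 1 among them. Its log2 fold change was 1.76 (SE 0.73), with an unadjusted edgeR p of 0.0297 and an adjusted p of 0.819. Library 4, the highest, also had the highest sum of fibroblast markers, though 4 of those 10 markers had a lower mean after deletion and hypoxia. The part of fibroblasts in the Pmepa1 level was not tested. Ski, a corepressor and the most abundant of the list, was at 423 ± 99.9 and 295 ± 78.0 CPM (SD, n = 4), and Ppm1a, a phosphatase gene, at 175 ± 74.9 and 87.7 ± 42.7 CPM.

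SMAD partners (6 tested, 3 lower, median -0.05) held Jun as the most abundant gene, at 1388 ± 211 and 1061 ± 463 CPM (SD, n = 4). Zeb1, a repressor tied to mesenchymal transition, was at 388 ± 67.6 and 222 ± 127 CPM, the coactivator gene Crebbp at 195 ± 129 and 325 ± 115 CPM, and Sp1 at 239 ± 88.0 and 161 ± 55.1 CPM. In SMAD-independent signalling (7 tested, 4 lower, median -0.17) the serine/threonine kinase gene Rock1 was at 270, 211, 195 and 181 CPM in the controls and at 418, 308, 384 and 336 CPM in the other group. The groups did not overlap, and the log2 fold change of 0.78 (SE 0.35) had an unadjusted edgeR p of 0.0434 and an adjusted p of 0.942. Its paralogue Rock2 was at 230 ± 54.1 and 362 ± 94.2 CPM (adjusted p 1.00 by edgeR, log2 fold change 0.68). Rhoa, the small GTPase gene upstream of both, was the most abundant at 1058 ± 93.1 and 937 ± 259 CPM, and Mapk14, the p38 kinase gene, was at 131 ± 30.6 and 51.8 ± 40.4 CPM.

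Genes that TGF-beta raises in many cells (19 tested, 10 higher, 9 lower) had a median log2 fold change of 0.02. Col1a2 was at 106 ± 95.2 and 320 ± 254 CPM (SD, n = 4) and Col1a1, whose product pairs with it in type I collagen, at 36.5 ± 31.0 and 8.07 ± 7.49 CPM. Timp3, an inhibitor of matrix metalloproteinases and the most abundant of the list, was at 2434 ± 518 and 2976 ± 1945 CPM. Without Sox17-deleted hypoxic library 1 (5813 CPM) the mean of Timp3 was 2031 CPM and its log2 fold change turned from 0.32 to -0.19. The transglutaminase gene Tgm2 was at 716 ± 68.1 and 918 ± 418 CPM. Leaving out control library 2 moved the log2 fold change of Col1a2 from 1.54 to 2.40, and that of Col1a1 moved from -2.13 to -3.02 without Sox17-deleted hypoxic library 3 and to -1.47 without control library 1. No named target passed the edgeR test.

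**Figure D4:**
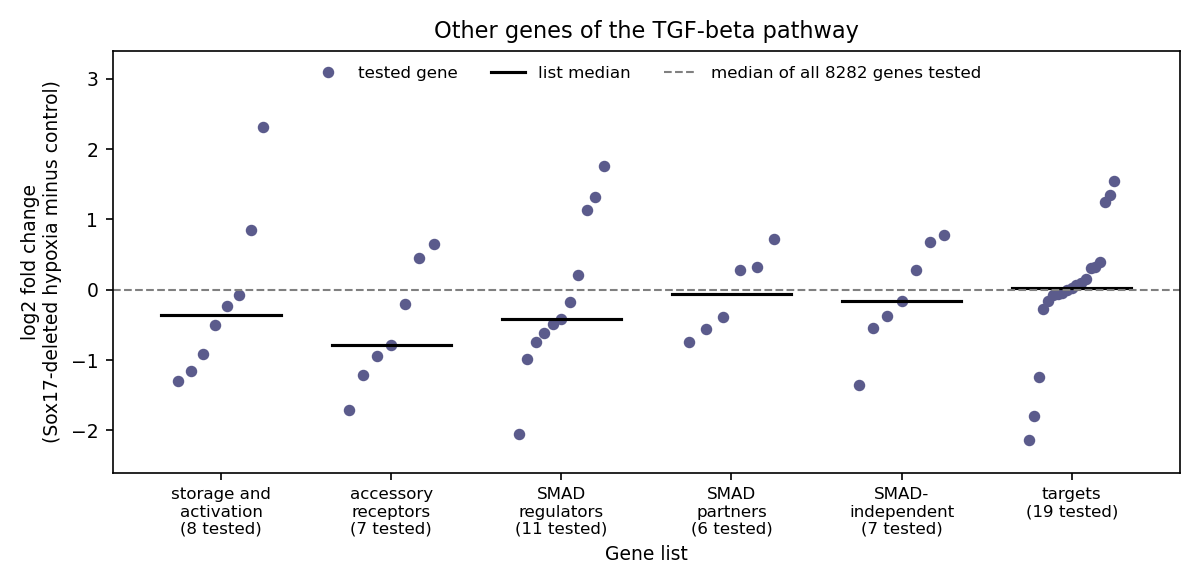
Log2 fold change (Sox17-deleted hypoxia minus control) of each tested gene of 6 lists of the TGF-beta pathway, with black bars for list medians and a dashed line for the median of all 8282 genes tested (-0.01). List medians lie between -0.78 for accessory receptors, a list that also holds genes that are not receptors, and 0.02 for targets. Single genes spread from below -2 to above 2.

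The library profile of Tgfbr2, the most abundant member, was compared with those of the 1641 genes with a mean in the upper range, all above that of Tgfbr2. Likeness was the root mean square difference over the 8 libraries of log2(CPM + 1), each gene centred on its own mean. The nearest profiles were those of Ptprg (0.49), B230219D22Rik (0.58), Sept7 (0.61), Gimap6 (0.64) and Scamp3 (0.72), beside a median of 1.54 over all genes compared. All of these share the same 8 libraries and their depth, and no test was made.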

How the data were processed

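Ribosome-bound RNA of lung was immunoprecipitated by its haemagglutinin tag and made into QuantSeq 3′ libraries, per the labels' protocols. The deposited values are counts per gene symbol, whole numbers with no normalization. Bowtie2, bedtools and mm10 are named in the submitters' processing notes, and versions, strand and the handling of repeated reads are not given in the sources used here. No unique molecular tags are named, so repeated copies of a molecule could inflate single values. Rows with a repeated symbol (44) were summed.

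All 8 libraries were fitted together in R 4.3.3 with edgeR 4.0.16 (filterByExpr, trimmed mean of M values factors of 0.894 to 1.06, group alone, quasi-likelihood F test), with Benjamini-Hochberg adjustment over the 8282 genes tested and a threshold of 0.05. The SE is the log2 fold change divided by the square root of F. Exact permutation tests of log2(CPM + 1) were two-sided (SciPy 1.17.1). Alternatives were DESeq2 1.42.0, limma-voom (limma 3.58.1), other scalings and filters, robust estimation, a replicate block and each library left out. The fits were tested on simulated data.

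No 2 libraries agreed within sampling noise (chi-square per degree of freedom at least 188). No label says that libraries came from separate animals, so a p-value reflects only the scatter among libraries, part of which may be technical. Positions come from GENCODE M21 and promoters from RefSeq. The members and lists were chosen with earlier results of these data known. The named genes are the 10 members, Sox17, and, of each pathway list, the 3 tested genes of lowest p and the most abundant, with the 5 genes most like Tgfbr2. Outside this rule, Tbp, Ttll5, Usp15, Sdcbp and the 4 list genes called by DESeq2 (Itgav, Ltbp2, Thbs1 and Tgif1) were chosen after their values were seen.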

Additional observations from a re-analysis of the deposited data

Results flagged for a closer look

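In 4 of the 17 sets of 4 libraries with at least 10 counts in a library, 1 value stood far from the other 3. For values with a normal spread chance gives about 1 in 20. All 4 were high values among the 8 sets of the Sox17-deleted hypoxic group, in which 20.9% of 8158 tested genes with at least 10 counts in a library had a value standing apart in this way, against 7.72% of 8280 in the controls. Tgfb3 was at 18.3 CPM in library 4 and at 0 in the other 3. Smad2 was at 32.7 CPM in library 2, with 0.0896 CPM as the next highest, and Smad3 was at 17.8 CPM in the same library and at 0 in the others. Tgfbi was at 38.3 CPM in library 1, with 3.70 CPM as the next highest.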

How the results depend on the processing

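None of the 10 genes was called under any alternative in which at least 1 was tested; none was among the 1641 most abundant genes, so that filter gave no value for them. Over 16 alternatives, the log2 fold changes of the 8 tested genes kept their direction in 124 cases and turned in 4. Those that turned were Tgfbr2 with limma-voom (-0.73), with the replicate block (-0.50) and without Sox17-deleted hypoxic library 3 (leave-one-out range -0.72 to 0.89), and Tgfbi without Sox17-deleted hypoxic library 1 (leave-one-out range -2.21 to 3.10). Genes called over all genes numbered 469 with DESeq2, 44 with limma-voom, 17 with no low-count filter, 4 among the 1641 most abundant genes, 1 with robust estimation, and 0 to 5 with a library left out, where 5 came without Sox17-deleted hypoxic library 1. DESeq2 called 4 genes of the pathway lists. Tested members whose groups did not overlap numbered 1 to 3 with a library left out. Smad4 joined Tgfbr3 without control library 2, Smad2 and Smad4 without Sox17-deleted hypoxic library 2, and Tgfb2 (higher) without Sox17-deleted hypoxic library 4. The untested Tgfbr1 also separated without control library 2, at 8.50 CPM or more in the other controls against at most 0.387 CPM. Fewer samples per group make such separation easier. The median log2 fold change of all genes was -0.71 with limma-voom and -0.57 with the replicate block. Deviations of same-numbered libraries correlated between -0.03 and 0.02, and 2 of the 4 controls correlated best with their own number. Libraries with different numbers correlated in a similar range. This check thus shows no pairing by number but cannot exclude it. The replicate block called 0 genes. The log2 fold changes of Smad2 and Smad3 without library 2 and of Tgfb3 without library 4 rest on groups at 0 or 1 count and have no interpretable size. The cause of these changes was otherwise not tested.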
